A study of Mus musculus with 8 samples.

Results

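The 9 genes described here are *Aldh1a3*, *Gast*, *Neurog3*, *Sox9*, *Hes1*, *Sox4*, *Cd81*, *Spp1* and *Krt19*, which are known from dedifferentiated β cells, from the progenitors of islet cells or from pancreatic ducts. They were taken by name, and every probe that carried one of these gene symbols was included. They are 9 of the 26894 gene symbols on the array, with 15 of the 56605 probes, of which 13 were bright enough to be tested among 35363 tested in all. RNA came from islets of 4 βUCP2Tg samples and 4 WT samples. βUCP2Tg mice carry a transgene in which the promoter of the rat *Ins2* gene drives mouse *Ucp2*, the mitochondrial uncoupling protein 2, so that the protein is overproduced in β cells while the other cells of the islet are not targeted. The WT mice were littermates, the line had been backcrossed repeatedly to C57BL6/J, and the methods give male mice of 8 to 20 weeks in general and of 8 to 12 weeks for isolated islets. Islets of both genotypes were picked by hand and were kept for 8 h at 200 mg/dL glucose, so neither group represents an unstimulated islet. The labels do not say whether islets were pooled across mice, so the SD, n and p below refer to samples, and their spread may in part be technical.

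A mature β cell can lose its specialised programme under metabolic stress and take up genes that it used during development, which is called dedifferentiation. In the embryonic pancreas, SOX9 marks duct-like progenitors, and the transcription factor NEUROG3 commits some of these cells to the endocrine fate. Notch signalling works against this step, since the activated receptor acts with RBPJ to switch on *Hes1*, and HES1 represses *Neurog3*. Adult islets normally hold little NEUROG3, and ALDH1A3 and gastrin have been used as marks of failing β cells.

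The probe sequences define what was measured, because each signal is the amount of Cy3-labelled RNA that binds a stretch of 60 bases. Probes of a gene differ in sequence, and those of *Sox9* gave different results. The sequences below are those of the deposited table, 5′ to 3′, and are shown for 1 probe each of *Gast*, *Neurog3*, *Sox9*, *Cd81* and *Krt19*. For *Sox9* this is the probe with almost no difference between genotypes, and for *Cd81* the dimmer of its probes. No base is in capitals in this set.
*Gast* A_52_P236233: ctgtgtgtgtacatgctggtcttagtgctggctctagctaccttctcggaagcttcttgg
*Neurog3* A_51_P175784: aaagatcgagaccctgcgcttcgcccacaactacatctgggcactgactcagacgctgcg
*Sox9* A_55_P2745144: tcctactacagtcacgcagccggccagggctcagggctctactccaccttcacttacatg
*Cd81* A_51_P223442: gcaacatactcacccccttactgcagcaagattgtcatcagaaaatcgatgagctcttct
*Krt19* A_51_P356642: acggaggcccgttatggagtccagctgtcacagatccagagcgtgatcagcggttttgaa

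The brighter probe of *Aldh1a3* and the probe of *Hes1* each hold the letters AATAAA, the common polyadenylation signal that precedes the cut at the end of a transcript. The last 30 bases of both probes are printed with these letters in capitals, since a signal of this kind often lies near the end of a transcript. Where the probes lie in the transcripts was not mapped here.
*Aldh1a3* A_52_P87843, last 30 bases: gttcagcaatgaaaaAATAAAgttggacac
*Hes1* A_55_P2046245, last 30 bases: tgagaaaatatAATAAAagagtgaaggctt

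The stretch of 250 bases before the transcription start was available from RefSeq (GRCm38.p6) for 5 of the 9 genes. It was searched on both strands for TGGGAA, the core of the RBPJ site, and for CACNAG, the N box bound by HES proteins. TGGGAA occurred in 21.6% and CACNAG in 36.7% of the 32851 windows of this length in the table. The window of *Sox4* held each motif at 1 place, that of *Cd81* held TGGGAA at 1 place, and those of *Neurog3*, *Gast* and *Spp1* held neither on either strand, so TGGGAA was found for 2 and CACNAG for 1 of the 5 genes. These 3 windows are printed with matches in capitals because *Sox4* and *Cd81*, had both tested probes higher on every βUCP2Tg array, and because *Neurog3* is the gene that HES1 represses. A match describes the letters only, and binding was not measured.
*Sox4*, chr13:28953700-28953949, minus strand: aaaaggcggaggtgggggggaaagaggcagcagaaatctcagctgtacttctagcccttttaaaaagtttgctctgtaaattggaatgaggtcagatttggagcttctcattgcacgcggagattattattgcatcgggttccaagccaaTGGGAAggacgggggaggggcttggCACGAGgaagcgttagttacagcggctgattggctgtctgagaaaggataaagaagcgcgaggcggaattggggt
*Cd81*, chr7:143052500-143052749, plus strand: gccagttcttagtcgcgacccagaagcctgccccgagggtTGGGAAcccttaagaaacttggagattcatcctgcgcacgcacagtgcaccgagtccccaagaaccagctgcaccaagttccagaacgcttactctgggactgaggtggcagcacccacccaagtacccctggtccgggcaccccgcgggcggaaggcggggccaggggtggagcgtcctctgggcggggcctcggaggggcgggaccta
*Neurog3*, chr10:62132840-62133089, plus strand: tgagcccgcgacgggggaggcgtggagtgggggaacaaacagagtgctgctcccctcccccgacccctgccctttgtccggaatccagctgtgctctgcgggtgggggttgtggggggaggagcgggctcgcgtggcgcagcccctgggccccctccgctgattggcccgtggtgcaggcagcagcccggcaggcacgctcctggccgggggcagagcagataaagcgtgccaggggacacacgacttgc

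Signals are given as log2 of the scanner's background-subtracted intensity minus the 75th percentile of the same array, called the normalized log2 signal, so that 0 is the level of that percentile and 1 unit is a factor of 2. SE stands for the standard error of a log2 fold change. All 8 arrays shared a slide, on which each genotype had its own row, so row and genotype cannot be told apart. Between 33191 and 36320 probes were well above background on an array, and no member probe had a saturated or outlying spot. *Ucp2* was higher on all βUCP2Tg arrays at both of its probes, which fits the labels. Its log2 fold change was 6.24 at A_51_P297105 (adjusted p = 9.32e-06 by limma). At A_52_P90265 it was 0.44 (adjusted p = 0.0987 by limma), which was not called. WT replicates 1 and 3 had 2 of 10 scanner quality metrics out of range, and βUCP2Tg replicate 4 and WT replicate 1 stood apart from their groups in genes of the hypoxia response, as given below.

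No probe of the 9 genes passed the test between genotypes, which asked for an adjusted p under 0.05 by limma over all probes tested and a change of more than 1.5-fold. Over all 35363 probes, 0.41% were called (0.206% higher and 0.204% lower in βUCP2Tg). The dimmer tested probe of *Aldh1a3* entered through the βUCP2Tg arrays, since only 1 WT array measured it well above background, and the counts that follow are over the other 12, which were well above background on all 8 arrays. At an unadjusted p under 0.05 by limma, 8 of these 12 differed, 6 higher and 2 lower in βUCP2Tg, against 25.2% of all probes (9.99% higher and 15.2% lower). The groups did not overlap at 5 probes that were higher and at 1 that was lower in βUCP2Tg islets, against 5.25% and 7.17% of all probes. Over the 31692 probes well above background on all 8 arrays, 25.5% were under that p and 12.8% did not overlap. The member probes that lay higher without overlap were the brighter probe of *Aldh1a3*, both of *Sox4* and both of *Cd81*, and the lower one was that of *Krt19*. The median log2 fold change was 0.39 over the 12 member probes and -0.02 over all probes tested. Without WT replicate 1, 6 of the 13 tested probes passed, 4 higher and 2 lower, where 10.8% of all probes did, and the dimmer *Aldh1a3* probe was among them. Without βUCP2Tg replicate 4 none passed (4.18% of all probes), and without both arrays, a setting chosen after seeing the data, 6 did (16% of all probes). The member probes are not independent of each other, since some genes have more than 1 tested probe.

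**Figure D1:**
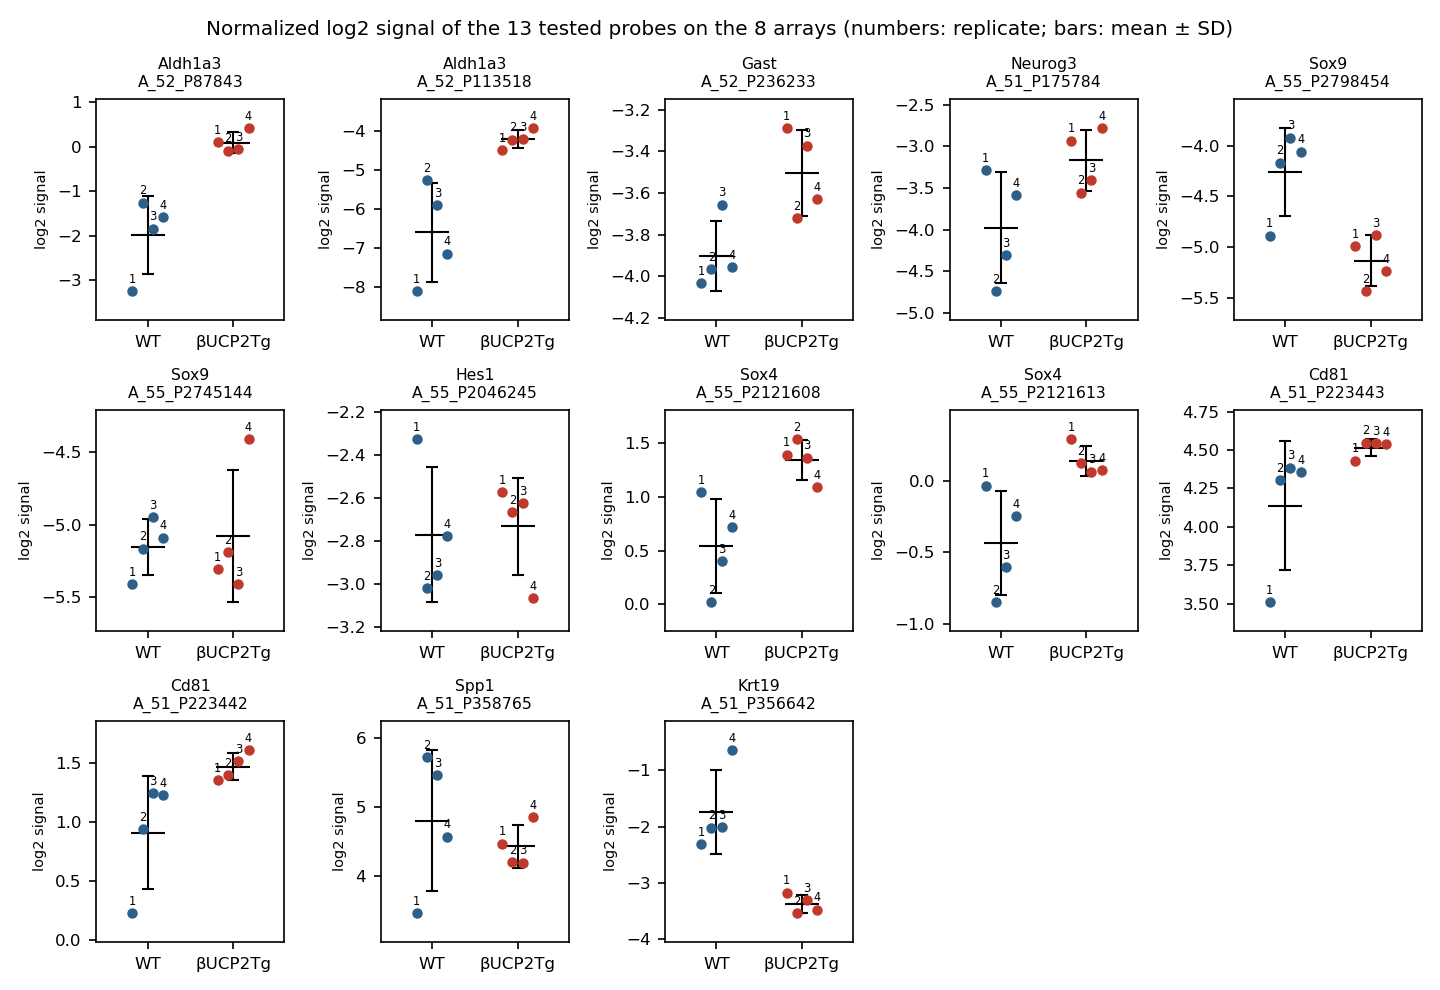
Normalized log2 signal (vertical axis, a scale of its own in each panel) of the 13 tested probes on the WT (blue) and βUCP2Tg (red) arrays, with the replicate number above each point and black bars for the mean ± SD of 4 arrays. The 2 tested probes of *Aldh1a3*, *Sox4* and *Cd81* each lie higher on every βUCP2Tg array than on any WT array, and *Krt19* lies lower. The *Aldh1a3* probe A_52_P113518 was well above background on only 1 WT array.

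*Aldh1a3* encodes a retinaldehyde dehydrogenase that makes retinoic acid, and it had the largest differences among the 9 genes. Its brighter probe (A_52_P87843) had normalized log2 signals of 0.10, -0.08, -0.06 and 0.42 on βUCP2Tg replicates 1 to 4, and of -3.24, -1.25, -1.84 and -1.58 on WT replicates 1 to 4. The βUCP2Tg arrays lay close together and all above the WT arrays, of which replicate 1 was far below the other three. Before scaling, the intensities ranged from 499.2 to 757.5 in βUCP2Tg and from 50.4 to 187.0 in WT islets, so the groups were apart before scaling as well. The means were 0.10 ± 0.23 (SD, n = 4) and -1.98 ± 0.88 (SD, n = 4), a log2 fold change of 2.07 (SE 0.39) or 4.21-fold, with a 95% interval from 2.26-fold to 7.84-fold. The adjusted p of limma was 0.0635, above the limit. The two-sided exact permutation test over the 8 samples gave p = 0.0286, the smallest value that 4 samples against 4 allow.

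The dimmer probe of *Aldh1a3* (A_52_P113518) had normalized log2 signals of -4.50, -4.22, -4.22 and -3.93 in βUCP2Tg and of -8.12, -5.26, -5.90 and -7.16 in WT islets. It showed the same separation, but was well above background on only 1 of the 4 WT arrays against 4 of 4 βUCP2Tg arrays. Since most WT values are thus not measured levels, no fold change is given for it. A further probe of the gene (A_55_P2596848) stayed at background throughout and did not enter the test. Without WT replicate 1, the brighter probe passed the test at a log2 fold change of 1.65, with an adjusted p of 0.0114 in limma. Leaving out that array raised the calls over all probes as well, to 10.8%. The brighter probe also passed with an intensity trend in limma (adjusted p = 0.0407) and with a background correction that damps dim probes (normexp with an offset of 50, adjusted p = 0.0232). Over the alternatives, its adjusted p ranged from 0.00277 to 0.198.

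The 3 genes whose signals over the 8 arrays were most like the brighter *Aldh1a3* probe, among 17859 other genes, were *Actn2* (Pearson r 0.99), *Slc8a2* (r 0.98) and *Plekhb1* (r 0.98). *Actn2* encodes an α-actinin, and *Slc8a2* encodes a sodium-calcium exchanger of the plasma membrane. These values describe likeness over arrays that share a slide and 2 genotypes, and 41 genes had r over 0.9.

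*Gast* encodes gastrin, a stomach hormone that the fetal pancreas also makes. Its normalized log2 signals were -3.29, -3.72, -3.37 and -3.63 in βUCP2Tg and -4.03, -3.97, -3.66 and -3.96 in WT islets. WT replicate 3 reached above βUCP2Tg replicate 2, so the groups overlapped at a single pair of arrays. The log2 fold change was 0.40 (SE 0.13), or 1.32-fold with a 95% interval from 1.07-fold to 1.63-fold, with an adjusted p of 0.128 by limma and a p of 0.0571 in the exact permutation test. With the normexp correction the log2 fold change was 0.01, so the size for this dim probe rested on how background was treated.

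*Neurog3* encodes the transcription factor that starts the endocrine programme. The tested probe (A_51_P175784) gave -2.93, -3.56, -3.40 and -2.78 in βUCP2Tg and -3.28, -4.74, -4.31 and -3.59 in WT islets, as normalized log2 signals. The spread within each genotype was wide, and WT replicate 1 lay above βUCP2Tg replicates 2 and 3. The log2 fold change was 0.81 (SE 0.33, 95% interval 0.05 to 1.57), or 1.76-fold, with an adjusted p of 0.177 by limma and a p of 0.114 in the exact permutation test. It was 0.17 with the normexp correction. A second probe (A_55_P2096028) stayed at background throughout. *Neurog3* RNA was thus measured well above background on all 8 arrays at a single probe only.

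*Hes1*, the Notch target that represses *Neurog3*, showed the smallest difference. Its normalized log2 signals were -2.57, -2.66, -2.63 and -3.06 in βUCP2Tg and -2.33, -3.02, -2.96 and -2.78 in WT islets. The ranges of the groups lay almost on top of each other, with the highest array in WT and the lowest in βUCP2Tg. The log2 fold change was 0.04 (SE 0.18, limma adjusted p = 0.912), with a 95% interval from -0.37 to 0.45. Its sign changed with the normexp correction (-0.08) and without βUCP2Tg replicate 1 (-0.01), WT replicate 2 (-0.04) or WT replicate 3 (-0.02).

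*Sox9* encodes a transcription factor of progenitors and adult ducts, and its 2 probes disagreed. Probe A_55_P2798454 gave normalized log2 signals of -4.99, -5.44, -4.88 and -5.24 in βUCP2Tg and of -4.89, -4.17, -3.92 and -4.06 in WT islets. WT replicate 1 lay within the βUCP2Tg range and the other three WT arrays above it. The log2 fold change was -0.88 (SE 0.22, limma adjusted p = 0.0895). Probe A_55_P2745144, whose sequence is printed above, gave -5.30, -5.19, -5.41 and -4.41 in βUCP2Tg and -5.41, -5.17, -4.95 and -5.09 in WT islets. Here the groups overlapped throughout and only βUCP2Tg replicate 4 stood out, with a log2 fold change of 0.07 (SE 0.22, limma adjusted p = 0.858) and a 95% interval from -0.43 to 0.58. Without WT replicate 1 the first probe passed the test (-1.09, adjusted p = 0.014 by limma), while the second was at -0.01. The adjusted p of the first probe ranged from 0.00918 to 0.252 over the alternatives, and its log2 fold change was -0.36 with normexp. The size of the *Sox9* difference therefore depended on the probe, and the second probe had no clear direction.

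*Sox4* encodes an SRY-related transcription factor that is needed for islet formation and is active in endocrine progenitors. The brighter probe (A_55_P2121608) had normalized log2 signals of 1.39, 1.54, 1.37 and 1.09 in βUCP2Tg and of 1.05, 0.02, 0.40 and 0.72 in WT islets. All βUCP2Tg arrays were above all WT arrays, but βUCP2Tg replicate 4 and WT replicate 1 nearly met. The second probe (A_55_P2121613) gave 0.29, 0.12, 0.06 and 0.08 against -0.03, -0.85, -0.60 and -0.25, again with no overlap and with WT replicate 1 nearest to the βUCP2Tg arrays. The log2 fold changes were 0.80 (SE 0.22, limma adjusted p = 0.0963), or 1.74-fold, and 0.57 (SE 0.18, limma adjusted p = 0.114), or 1.49-fold. Both probes thus pointed the same way with similar size. Without WT replicate 1 both passed the test (0.97, adjusted p = 0.0212, and 0.70, adjusted p = 0.0275, by limma), and the brighter probe also passed with normexp (adjusted p = 0.0486). The adjusted p of the brighter probe ranged from 0.012 to 0.261 over the alternatives.

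**Figure D2:**
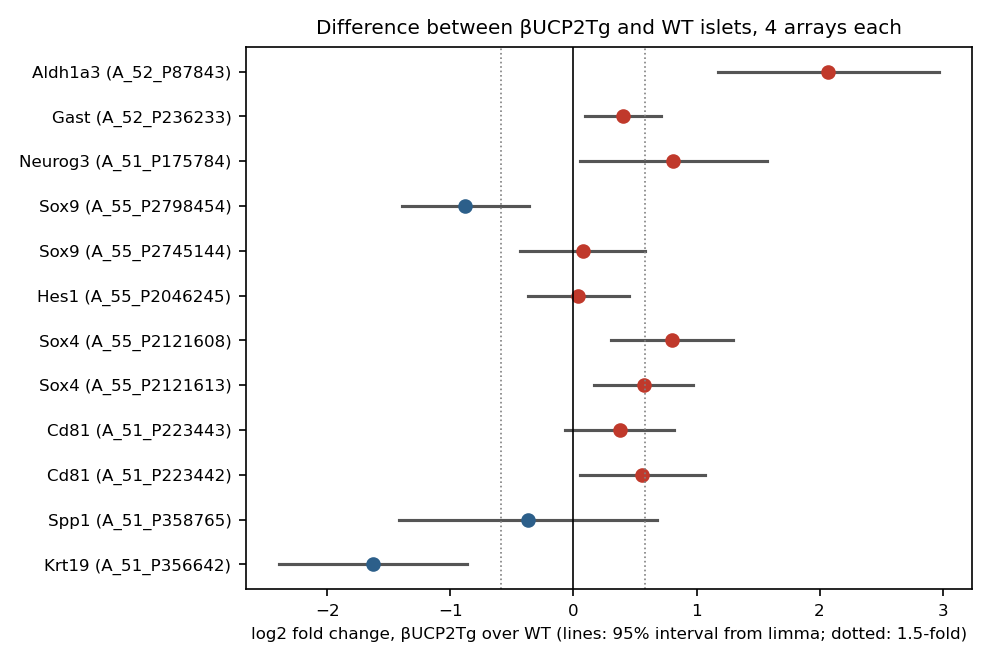
Log2 fold change of βUCP2Tg over WT (horizontal axis) for the 12 probes well above background on all 8 arrays, with 95% intervals from limma over 4 arrays in each group as grey lines and the 1.5-fold limits as dotted lines. The interval lies above 0 for *Aldh1a3*, for both probes of *Sox4*, for *Gast*, *Neurog3* and 1 probe of *Cd81*, below 0 for *Krt19* and 1 probe of *Sox9*, and spans 0 for the other four probes; these intervals are not adjusted for the number of probes.

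*Cd81* encodes a tetraspanin of the cell surface that has been described as a mark of immature and stressed β cells, although many cell types carry it. The brighter probe (A_51_P223443) had normalized log2 signals of 4.43, 4.55, 4.54 and 4.54 in βUCP2Tg and of 3.51, 4.30, 4.38 and 4.36 in WT islets. The other probe (A_51_P223442) gave 1.36, 1.40, 1.52 and 1.61 against 0.23, 0.94, 1.25 and 1.23. At both probes the βUCP2Tg arrays lay just above the WT arrays, and WT replicate 1 lay far below the rest. The log2 fold changes were 0.38 (SE 0.19, limma adjusted p = 0.26) and 0.56 (SE 0.22, limma adjusted p = 0.166). Without WT replicate 1 they were 0.17 and 0.33, so the size of the difference rested in large part on that array.

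*Spp1* encodes osteopontin, a secreted protein made by ducts, macrophages and injured tissue. Its normalized log2 signals were 4.47, 4.20, 4.19 and 4.85 in βUCP2Tg and 3.46, 5.71, 5.46 and 4.57 in WT islets. The WT arrays held both the lowest and the highest values, with all βUCP2Tg arrays between them. The log2 fold change was -0.37 (SE 0.46, limma adjusted p = 0.639), with a 95% interval from -1.42 to 0.68. It was -0.82 without WT replicate 1 (adjusted p = 0.0934 by limma) and -0.07 without WT replicate 2, and it passed in neither case.

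*Krt19* encodes keratin 19, an intermediate filament protein of pancreatic ducts, and had the largest difference in the other direction. Its normalized log2 signals were -3.17, -3.53, -3.31 and -3.48 in βUCP2Tg and -2.31, -2.02, -2.01 and -0.64 in WT islets. The βUCP2Tg arrays lay close together below all WT arrays, and WT replicate 4 was well above the other three. Before scaling, the intensities were 45.7 to 57.8 in βUCP2Tg and 96.1 to 282.0 in WT islets. The means were -3.37 ± 0.16 (SD, n = 4) and -1.74 ± 0.75 (SD, n = 4), a log2 fold change of -1.63 (SE 0.33, limma adjusted p = 0.0686), or 3.09-fold higher in WT islets. The exact permutation test gave p = 0.0286, again the smallest possible.

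*Krt19* passed the test without WT replicate 4, where it was the only member probe to do so (-1.26, adjusted p = 0.0449 by limma, with 0.0681% of all probes called). It also passed without WT replicate 1 (-1.82, adjusted p = 0.0201 by limma), with the intensity trend (adjusted p = 0.0496) and with normexp, where the log2 fold change was -1.02 (adjusted p = 0.0401). Its adjusted p ranged from 0.0201 to 0.223 over the alternatives, and the log2 fold change was below 0 in each of the 22 alternatives run for it.

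**Figure D3:**
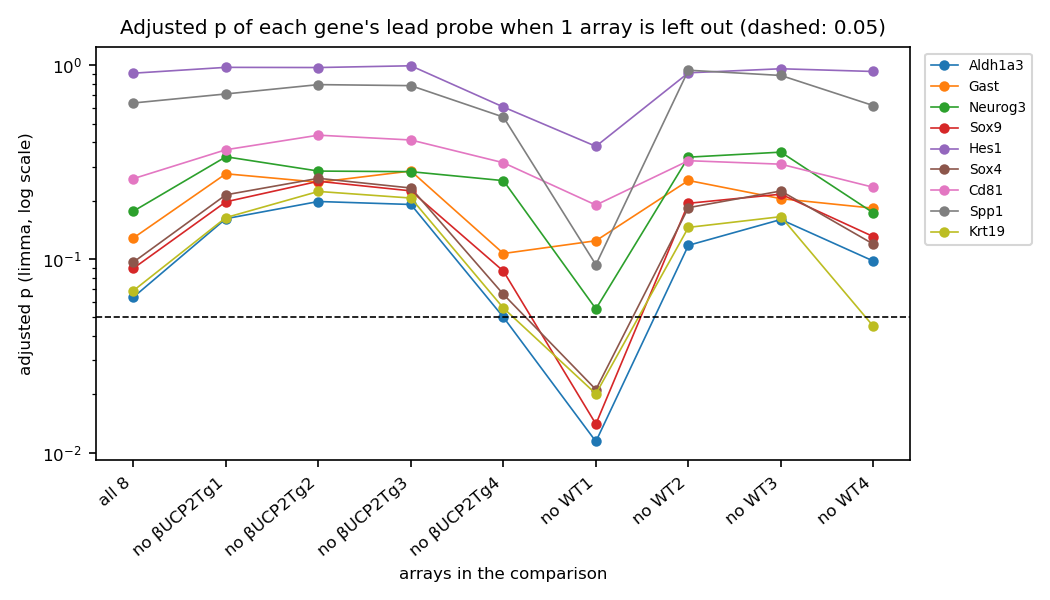
Adjusted p of limma (vertical log axis) for the brightest tested probe of each gene with all 8 arrays and with each array left out in turn (horizontal axis), with the limit of 0.05 dashed. Without WT replicate 1, *Aldh1a3*, *Sox9*, *Krt19* and *Sox4* lie below the limit, and without WT replicate 4 only *Krt19* does.

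Genes that act beside these 9 were counted in lists. In the Notch pathway (receptors, ligands, cofactors and targets other than *Hes1*), 21 of 24 genes were tested and none was called by limma. At an unadjusted p under 0.05, 3 were higher and 2 lower, and 24.5% of all genes passed that limit at their brightest probe, which is the background for this list and the others. The lower ones, named after their values were seen, were the receptor gene *Notch1* at -0.81 (SE 0.18, limma adjusted p = 0.0767) and the cofactor gene *Rbpj*, at -0.41, -0.67 and -0.56 on its 3 tested probes, and the higher ones were *Dlk1*, *Jag1* and *Heyl*, at 0.75, 0.36 and 1.5 on their brightest probes. The brightest probe was higher in βUCP2Tg for 13 and lower for 8 of them, with a median log2 fold change of 0.08 (0.03 to 0.15 with each array left out, -0.01 with normexp) against 0.03 over the brightest probes of all 17860 genes tested. *Hes6*, a HES family member that promotes differentiation, was at 2.58 ± 0.24 against 2.04 ± 0.51 in normalized log2 signal (SD, n = 4 each, adjusted p = 0.217 by limma). *Rfng*, a glycosyltransferase that modifies Notch receptors, was at 2.35 ± 0.05 against 2.27 ± 0.21 (SD, n = 4 each, adjusted p = 0.704 by limma).

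In the endocrine progenitor programme downstream of *Neurog3*, 21 of 22 genes were tested, 12 higher and 9 lower in βUCP2Tg at their brightest probes, with a median log2 fold change of 0.17 (0.09 to 0.21 with each array left out, 0.06 with normexp). At an unadjusted p under 0.05, 6 were higher and 3 lower. *Cdkn1a*, which encodes the cell cycle inhibitor p21, was the single gene called, and only by the dimmest of its 3 tested probes (A_55_P1986282), with a log2 fold change of 1.11 (SE 0.16, limma adjusted p = 0.0456). Its brightest probe (A_51_P363947) had -0.21 (limma adjusted p = 0.519) and the other (A_55_P1976204) had -0.66 (limma adjusted p = 0.273), so the direction of *Cdkn1a* depended on the probe. On the called probe, normalized log2 signals were -4.32, -3.92, -4.31 and -4.58 in βUCP2Tg and -5.46, -5.22, -5.66 and -5.23 in WT islets, with no overlap. *Insm1*, a transcription factor that *Neurog3* switches on, had a log2 fold change of -0.02 (SE 0.12), and *Chgb*, a granin of secretory granules, had -0.10 (SE 0.11). *St18*, a zinc finger transcription factor named after its values were seen, had -0.74 at its brighter probe with no overlap (SE 0.12, limma adjusted p = 0.0517).

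For the retinoid genes, which act with *Aldh1a3*, 14 of 19 were tested and none was called by limma, with 3 higher and 2 lower at an unadjusted p under 0.05. Of these, 11 were higher and 3 lower in βUCP2Tg islets, with a median log2 fold change of 0.29 (0.19 to 0.32 with each array left out, lowest without WT replicate 1, and 0.15 with normexp). *Rxra*, a nuclear receptor partner of the retinoic acid receptors, had a log2 fold change of 0.35 (SE 0.12, limma adjusted p = 0.132) and did not overlap between groups, whereas *Rbp4*, the retinol carrier, had 0.02 (SE 0.14). Among other genes of immature or dedifferentiated β cells, 16 of 18 were tested, 8 in each direction, with a median of -0.01 (-0.15 to 0.05 with each array left out, 0.02 with quantile normalization) and 4 higher and 3 lower at an unadjusted p under 0.05. *Serpina7*, which encodes the thyroxine-binding globulin, rose by a log2 fold change of 1.03 (SE 0.15, limma adjusted p = 0.0456) and was the single gene called in it. Its normalized log2 signals were -0.65, -0.52, -0.98 and -0.98 in βUCP2Tg and -2.12, -1.74, -1.67 and -1.72 in WT islets. *Pyy*, a peptide hormone of immature islets, had 0.78 (SE 0.19, limma adjusted p = 0.087), and *Gc*, the vitamin D binding protein, had 0.56 (SE 0.14, limma adjusted p = 0.0885), both with no overlap. The genes lower at an unadjusted p under 0.05, named after their values were seen, were *Ldha*, the lactate dehydrogenase A gene, at -2.18 and -2.13 on its 2 probes (limma adjusted p = 0.116 and 0.125), the lactate transporter gene *Slc16a1* at -1.15 (limma adjusted p = 0.109) and *Bach2* at -0.42. The called *Cdkn1a* probe and *Serpina7* both lost the call without any of βUCP2Tg replicates 1 to 3 or WT replicates 2 to 4, and with no filter on dim probes, since no gene of any list was called then.

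Genes of mature β cells showed no call in either direction by limma, with 18 of 18 tested, 7 higher and 11 lower in βUCP2Tg and a median log2 fold change of -0.08 (-0.13 to -0.02 with each array left out, 0.05 with quantile normalization). At an unadjusted p under 0.05 the count was 1 higher and 3 lower, named here after their values were seen. *Mafa* had -0.34 (SE 0.10, limma adjusted p = 0.1025) and *Pcsk1* had -0.32 (SE 0.08, limma adjusted p = 0.0932), both with no overlap. *G6pc2* had -0.33 at its brighter probe (SE 0.14, limma adjusted p = 0.1865), and the higher gene was *Glp1r* at 0.58 (SE 0.25, limma adjusted p = 0.192). *Ins2* had a log2 fold change of -0.18 (SE 0.10, limma adjusted p = 0.315) and *Ins1* of -0.16 (SE 0.12, limma adjusted p = 0.434). Of the 7 hormones and genes of other islet cells, all tested and none called (1 higher and 0 lower at an unadjusted p under 0.05), 5 were higher and 2 lower with a median of 0.14 (0.08 to 0.21 with each array left out). The pancreatic polypeptide gene *Ppy* had 0.27 (SE 0.16) and the glucagon gene *Gcg* had 0.04 (SE 0.16). These 4 hormone genes, which define islet tissue, were well above background on all 8 arrays.

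Several of the 9 genes are also made by cells other than β cells, and in whole islets fewer cells of a type cannot be told apart from less RNA per cell. Of the duct list without *Krt19*, *Sox9* and *Spp1*, 12 of 14 genes were tested, none was called (1 higher and 1 lower at an unadjusted p under 0.05), and 8 were higher and 4 lower with a median log2 fold change of 0.12 (0.05 to 0.15 with each array left out, 0.02 with normexp). The mean of the list was -0.31, -0.42, -0.20 and -0.32 on βUCP2Tg replicates 1 to 4 and -0.51, -0.44, -0.27 and -0.23 on WT replicates 1 to 4. The groups overlapped in this mean, but within the WT arrays it ran in the same order as *Krt19*, lowest on replicate 1 and highest on replicate 4, and within the βUCP2Tg arrays both were lowest on replicate 2. The part of duct cells in the *Krt19* values was not tested. *Krt7*, another duct keratin, had a log2 fold change of 0.70 (SE 0.24, limma adjusted p = 0.128), opposite in sign to *Krt19*, and *Cldn3* had -0.10 (SE 0.10). *Slc4a4*, a bicarbonate transporter gene named after its values were seen, had the sign of *Krt19*, at -0.76 on its brightest probe with no overlap (SE 0.17, limma adjusted p = 0.0825) and at -0.77 and -0.45 on the others. The defining duct genes *Cftr* and *Sctr* were too dim to be tested.

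Acinar and hypoxia genes did move with some arrays. Of 20 acinar genes, 19 were tested, none was called (0 higher and 1 lower at an unadjusted p under 0.05) and all 19 were lower in βUCP2Tg, with a median log2 fold change of -1.74 (-2.72 to -1.20 with each array left out, lowest without βUCP2Tg replicate 4 or WT replicate 4). The mean of the list was -1.02, 0.51, -0.50 and 3.03 on βUCP2Tg replicates 1 to 4 and 2.21, 3.24, 3.61 and -0.47 on WT replicates 1 to 4. *Krt19* was highest on WT replicate 4, where the acinar mean was lowest among WT arrays, and was as low on βUCP2Tg replicate 4, where it was highest among βUCP2Tg arrays, as on the others. *Amy2a5* and *Cela2a*, the brightest enzymes of the list, had log2 fold changes of -2.02 (SE 1.22) and -2.14 (SE 1.26).

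All 15 genes of the hypoxia response were tested, none was called by limma and 11 were lower at an unadjusted p under 0.05 (0 higher), with a median log2 fold change of -1.22 (-1.62 to -1.06 with each array left out, and -1.87 without both βUCP2Tg replicate 4 and WT replicate 1). Their mean was 0.90, 0.91, 0.89 and 2.16 on βUCP2Tg replicates 1 to 4 and 1.62, 2.51, 2.55 and 2.55 on WT replicates 1 to 4. *Aldh1a3* was highest within its group on βUCP2Tg replicate 4 and lowest on WT replicate 1, the same 2 arrays that departed from their groups here. Between genotypes the signs were opposite, with a log2 fold change of 2.07 at the brighter *Aldh1a3* probe and the median of -1.22 for this list. *Bnip3*, a mitochondrial protein induced by low oxygen, had a log2 fold change of -1.54 (SE 0.45, limma adjusted p = 0.108), and *Ndrg1* had 0.01 (SE 0.12). The part of the acinar and hypoxia genes in the values of the 9 genes was not tested.

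**Figure D4:**
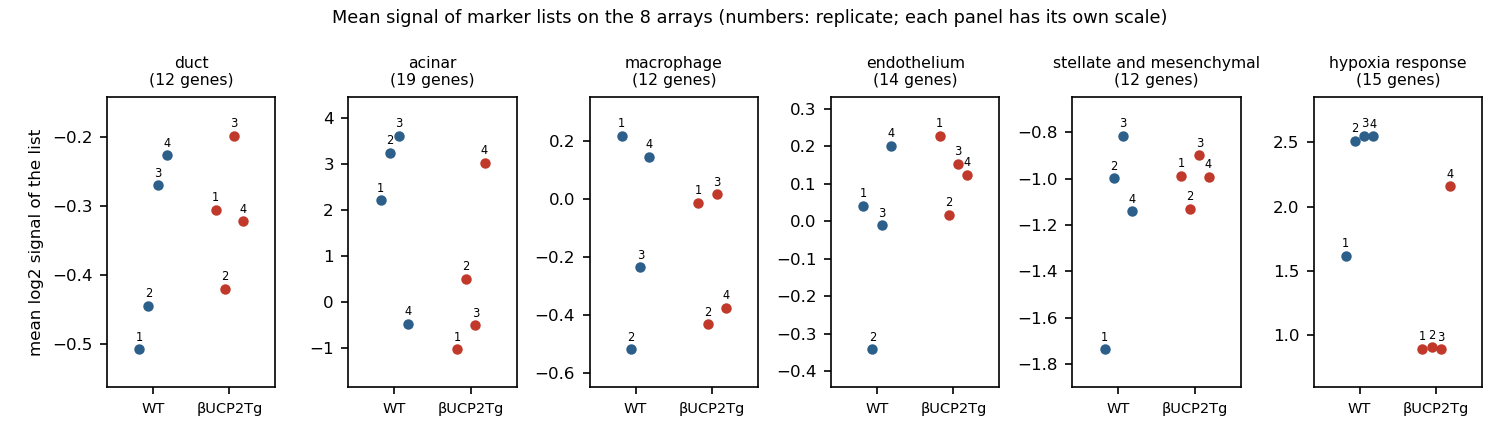
Mean normalized log2 signal of the tested genes of 6 lists (vertical axis, a scale of its own in each panel) on the WT (blue) and βUCP2Tg (red) arrays, with replicate numbers. The acinar mean is high on WT replicates 1 to 3 and βUCP2Tg replicate 4, the hypoxia mean is near 0.90 on βUCP2Tg replicates 1 to 3 only, and the duct means of the groups overlap.

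Macrophage, endothelial and stellate genes gave no call by limma either. Of 14 macrophage genes 12 were tested, 4 higher and 8 lower in βUCP2Tg, with a median of -0.22 (-0.39 to -0.08 with each array left out, 0.02 without both βUCP2Tg replicate 4 and WT replicate 1) and 2 in each direction at an unadjusted p under 0.05. The mean of this list lay between -0.43 and 0.02 in βUCP2Tg and between -0.52 and 0.22 in WT islets, and *Mrc1* and *Cd163* were too dim to be tested. The brightest members pointed in different directions, with a log2 fold change of 0.66 for *C1qa* (SE 0.15, limma adjusted p = 0.0823) and -0.34 for *Itgam* (SE 0.14). All 14 endothelial genes were tested, 7 in each direction with a median of 0.10 (0.02 to 0.22 with each array left out) and 5 higher and 2 lower at an unadjusted p under 0.05. The brightest, *Egfl7* at -0.54 (SE 0.15) and *Flt1* at -0.75 (SE 0.25), were the lower ones. The higher ones, named after their values were seen, were *Kdr*, *Emcn*, *Sox18*, *Tek* and *Eng*, with log2 fold changes from 0.32 to 1.05 at their brightest probes. Of the 12 stellate and mesenchymal genes, all tested, 8 were higher and 4 lower with a median of 0.32 (0.01 without WT replicate 1, and -0.02 with normexp) and 2 higher and 0 lower at an unadjusted p under 0.05. Here *Sparc* had 0.05 (SE 0.16) and *Acta2* had -0.43 (SE 0.21).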

How the data were processed

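Islet RNA of 4 βUCP2Tg and 4 WT samples was hybridised to one-colour Agilent mouse arrays. The deposited scanner files hold spot intensities (linear, background subtracted) made by Feature Extraction (10.7.3.1 in the file headers, 9.1 in the submitters' processing notes; build mm9 in the headers) and flags for outlying, saturated and dim spots. The deposited GeneSpring table holds normalized log2 values of the authors, which differ from log2 intensity by a constant per array (at least 99.93% of probes within 0.01). Its columns of fold change and p were not used. Symbols and probe sequences came from that table.

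Control and outlying spots were left out of the 59305 spots, intensities were taken to log2 and reduced by the array's 75th percentile over non-control probes, and replicate spots were averaged. Probes well above background in at least 50% of kept spots on at least 4 of 8 arrays were tested with limma 3.58.1 under R 4.3.3, adjusting p over all of them by Benjamini-Hochberg. In lists, directions and medians were read from the brightest tested probe of a gene, while a gene counted as called when any of its probes was. For single probes, exact permutation tests (two-sided) used the 70 assignments of arrays. The comparison was tested on simulated data. The number of arrays limits the precision. Intervals for fold changes are 95% intervals of the fitted values.

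Named in the text were all 9 genes with every probe, *Ucp2*, the called genes and the 2 brightest genes of each of 12 lists, and the 3 genes most like the member with the smallest p. *Notch1*, *Rbpj*, *Dlk1*, *Jag1*, *Heyl*, *Ldha*, *Slc16a1*, *Bach2*, *Mafa*, *Pcsk1*, *G6pc2*, *Glp1r*, *Slc4a4*, *St18*, *Kdr*, *Emcn*, *Sox18*, *Tek* and *Eng* were named outside this rule, after their values were seen. These members and lists were chosen with earlier results of these data known, so no list was tested as a set and no p was adjusted over the list alone. Alternatives were the filter on dim probes, normalization (quantile, another percentile, the deposited values, normexp), outlying spots, the methods' t-test, an intensity trend, dropping the fold limit, averaging the tested probes of each gene, a replicate block and each array left out. Leaving out both βUCP2Tg replicate 4 and WT replicate 1 was added after seeing the data.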

Additional observations from a re-analysis of the deposited data

Results flagged for a closer look

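Of 54 groups of 4 arrays examined, 5 had an array that stood apart by Dixon's ratio (the gap to the nearest array over the range of the group), where about 1 in 20, or 2.7, would by chance. For the brighter *Cd81* probe (A_51_P223443), WT replicate 1 was at 3.51 against 4.30 to 4.38 on the other WT arrays (ratio 0.908). The same probe was at 4.43 on βUCP2Tg replicate 1 against 4.54 to 4.55 on the others (ratio 0.910), in a group that spans a much smaller range. The mean of the Notch pathway list was -1.19 on WT replicate 2 against -0.92 to -0.87 on the other WT arrays (ratio 0.848). The mean of the hypoxia response was 2.16 on βUCP2Tg replicate 4 against 0.89 to 0.91 (ratio 0.987), and 1.62 on WT replicate 1 against 2.51 to 2.55 (ratio 0.960).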

How the results depend on the processing

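Member probes called (higher and lower; 0 and 0 as reported) numbered 2 and 1 with normexp (816 of all probes called, against 145), 3 and 2 with the methods' t-test unadjusted (2832), 1 and 1 with an intensity trend (379), and 4 and 2 without both βUCP2Tg replicate 4 and WT replicate 1 (5486), a setting chosen after seeing the data. Leaving out each array gave 0 to 4 higher and 0 to 2 lower, with 8 to 3759 probes called in all (lowest without βUCP2Tg replicates 1, 2 or 3, highest without WT replicate 1). All probes called were 21 with no filter on dim probes, 237 with probes above background on all 8 arrays (where A_52_P113518 was not tested) and 26 with the adjusted t-test. Genes called in the lists (2 as reported) were 0 with no filter, 1 with quantile normalization, 20 with normexp, 55 without both arrays and 0 to 42 with each array left out. Without overlap, 6 member probes lay higher and 1 lower over all 13 tested (12.4% of all probes did not overlap), 3 and 2 with normexp (20.9%), 6 to 7 and 1 to 2 with each array left out (13.6% to 30%), and 8 and 4 without both arrays (45.1%). The sign turned for *Hes1* (log2 fold change -0.084 with normexp, -0.044 to 0.19 with each array left out, against 0.30 without both arrays) and for *Sox9* A_55_P2745144 (normexp -0.13, each array left out -0.15 to 0.19, both arrays out -0.23). The cause was not tested in any of these. The counts of 3 and 4 member probes called higher, and of 6, 6 to 7 and 8 lying higher without overlap, include *Aldh1a3* A_52_P113518, which was well above background on 1 WT array only (5 lay higher over probes above background on all 8 arrays). With the replicate number as a block, 14 probes, no gene of the lists and no member probe were called, but samples of the same number did not deviate together (r 0.44, -0.05, -0.01 and -0.24), so the numbers do not pair them. None of the other 11 tested member probes changed sign under the alternatives run for it.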
